A study of Mus musculus with 6 samples.

Results

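The PB120 c-Myc profile consists of every peak that the authors called in the c-Myc immunoprecipitate of the mouse lung cancer cell line PB120 against the input chromatin of the same line. It holds 5168 peaks, 19.5% of the 26525 listed for the lines PB115, PB119 and PB120 together, and no peak was left out. Each line has 1 ChIP library and 1 input library, named by the sample titles, and no line has a replicate. After the authors' filtering, PB120 had 32299364 ChIP tags and 26156520 input tags. The ChIP used a c-MYC antibody (clone D3N8F) on formaldehyde-fixed, sonicated chromatin, and the input is such chromatin without antibody. The sources used here give no genotype, tumour model or histological type for PB120. Values from PB115 and PB119 appear below only beside PB120 values. Without replicates no difference was tested, and every interval is a 95% interval that covers counting error only.

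c-Myc is a transcription factor of the basic helix-loop-helix leucine zipper family and acts on DNA in a dimer with Max. The pair recognises the E-box CACGTG and, more weakly, related hexamers such as CACGCG. It is known for binding the CpG-rich promoters of many active genes, above all those that serve ribosome production, protein synthesis and metabolism, and c-Myc is amplified or highly expressed in part of human lung cancers.

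Promoters at summits of high fold are shown as examples, picked with or without CACGTG in the stretch around the summit. Fold is the authors' enrichment, ChIP coverage over local input background at the summit, each with 1 added. The first set is drawn from coding genes whose RefSeq promoter window holds the summit. It holds the 6 of highest fold with CACGTG in the stretch around the summit, so a motif nearby follows from the choice. The set is shown for where the motif lies against the summit. Each stretch reaches up to 60 bases to either side of the summit and at most 30 bases past the start, within the RefSeq promoter of GRCm38.p6 (250 bases before to 50 after the start). It is written 5′ to 3′ on the gene's strand, with CACGTG in capitals, likewise CACGCG and, its reverse complement, CGCGTG. The regions are chr10:80264764-80264826 (plus strand) for Dazap1, chr17:56476546-56476665 (minus) for Ptprs, chr11:102189561-102189680 (plus) for G6pc3, chr13:51651603-51651722 (plus) for Secisbp2, chr8:66486501-66486595 (minus) for Tma16 and chr7:122066963-122067082 (plus) for Ubfd1.
Dazap1: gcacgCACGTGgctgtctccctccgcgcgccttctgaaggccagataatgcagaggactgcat
Ptprs: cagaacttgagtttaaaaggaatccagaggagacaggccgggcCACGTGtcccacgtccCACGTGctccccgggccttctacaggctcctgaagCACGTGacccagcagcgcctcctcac
G6pc3: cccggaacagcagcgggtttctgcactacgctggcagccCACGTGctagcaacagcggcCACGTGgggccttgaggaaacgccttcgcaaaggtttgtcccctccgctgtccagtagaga
Secisbp2: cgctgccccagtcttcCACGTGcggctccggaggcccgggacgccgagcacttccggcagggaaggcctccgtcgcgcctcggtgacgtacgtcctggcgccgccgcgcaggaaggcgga
Tma16: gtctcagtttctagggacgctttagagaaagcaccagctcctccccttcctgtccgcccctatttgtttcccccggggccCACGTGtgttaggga
Ubfd1: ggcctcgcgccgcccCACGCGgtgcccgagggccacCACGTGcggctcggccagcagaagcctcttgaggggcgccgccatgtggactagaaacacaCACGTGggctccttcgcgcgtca

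In Ptprs, a receptor-type tyrosine phosphatase gene, the stretch holds 3 copies of CACGTG, and the summit lies 1.5 bp from the centre of the nearest. G6pc3, a glucose-6-phosphatase gene, has 2 copies, again with the nearest 1.5 bp from the summit. At Dazap1, an RNA-binding protein gene, the distance is 4.5 bp. The distances at Ubfd1, Tma16 and Secisbp2 are 21.5, 22.5 and 41.5 bp. Ubfd1 shares this summit with Ears2, the gene of the mitochondrial glutamyl-tRNA synthetase, and it is the highest peak of both. The folds of the 6 summits run from 38.2 at Dazap1 through 27.1 at Ptprs to 23.0 at Ubfd1.

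A second set is shown because strong summits also lie on stretches without CACGTG. It holds Utp25, the highest peak of the list, and, by the same choice, the 3 coding genes of highest fold whose whole 300 bp promoter lacks the motif. The regions are chr1:193130241-193130355 (minus strand) for Utp25, chr4:132212227-132212338 (minus) for Ythdf2, chr3:86142669-86142788 (minus) for Rps3a1 and chr1:93803753-93803872 (plus) for Ing5.
Utp25: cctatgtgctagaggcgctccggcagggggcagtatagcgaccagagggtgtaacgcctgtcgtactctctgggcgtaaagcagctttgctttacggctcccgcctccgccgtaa
Ythdf2: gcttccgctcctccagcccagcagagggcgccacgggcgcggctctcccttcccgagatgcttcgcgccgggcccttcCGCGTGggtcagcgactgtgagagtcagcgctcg
Rps3a1: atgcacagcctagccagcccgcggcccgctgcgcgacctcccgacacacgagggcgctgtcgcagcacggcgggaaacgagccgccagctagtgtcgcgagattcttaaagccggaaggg
Ing5: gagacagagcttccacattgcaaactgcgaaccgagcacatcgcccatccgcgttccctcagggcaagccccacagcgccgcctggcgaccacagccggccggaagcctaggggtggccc

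Utp25 has 1 CACGTG in its promoter, but 69.5 bp from the summit and outside the stretch shown. Ythdf2, which encodes a reader of methylated adenosine in RNA, has CGCGTG in the stretch and a fold of 25.3. Rps3a1, a small-subunit ribosomal protein gene, and Ing5, a chromatin reader gene, have none of the 3 hexamers in their stretches and folds of 23.9 and 23.5. No match says only that these letters are not in this window.

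The peaks of PB120 were short and of moderate height. Median length was 247 bp, with quartiles of 190 and 340 bp and a longest peak of 1588 bp. The median summit was covered by 41 ChIP fragments (quartiles 34 and 52), and the weakest summit listed had 21. Median fold was 8.96, with quartiles of 7.43 and 11.2 and a range from 1.82 to 39.5. A fold of 20 or more was reached by 131 peaks (2.53%, Wilson interval 2.14 to 3.0) and a fold of 30 or more by 8. A fold under 5 was found at 102 peaks, whose median input background was 4.16 times the genome-wide level. Higher folds went with longer peaks: the top fold quintile of the list had a median length of 355 bp and 63 fragments, the bottom quintile 206 bp and 35 fragments. Across the 5168 peaks, which share 1 ChIP and 1 input library, Spearman's rho was 0.62 between fold and fragments, 0.45 between fold and length, and -0.41 between fold and background. Fold is computed from fragments and background, so these values describe the list.

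The summits of highest fold belonged to genes of different functions. Utp25, a factor of small ribosomal subunit assembly, led with a fold of 39.5 and 142 fragments (exact Poisson interval 119.6 to 167.4), with its summit 25 bp upstream of the start. Dazap1 followed with 38.2 and 150 fragments. Its summit lies inside the annotated gene but 247 bp before the nearest listed start. Pcbp1, which encodes a poly(C)-binding RNA regulator, had 37.1 and 140 fragments on a peak 1259 bp long. Polr3e, a subunit gene of RNA polymerase III, had 32.0 and 112 fragments at a summit that also lies 179 bp from the leucine tRNA gene n-TLaag4. Here a polymerase gene and a template of that polymerase thus share 1 summit. B3galt6, a galactosyltransferase gene, shares its summit of 30.2 with Sdf4. Larp1, a regulator of the translation of ribosomal protein mRNAs, had 30.1, and Kifc1, a mitotic kinesin gene, had 29.2. The lncRNA genes Gm12762 and Gm12758 share a summit of 29.3 and 105 fragments that lies 2502 bp from the nearest coding gene, Garre1.

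The order of these leading sites was not that of the other lists. In PB115 and PB119 the overlapping peaks had folds of 22.4 and 29.7 at Utp25, 20.1 and 30.2 at Dazap1, 38.2 and 55.2 at Pcbp1, and 35.0 and 55.6 at Larp1. A summit inside Gng7, a G protein gamma subunit gene, had 31.7 and 115 fragments in PB120 on a peak of 1144 bp, beside 10.6 and 14.2 in the other lines. Another of the 10 highest summits lies outside annotated genes, 4989 bp upstream of Phf13, with a fold of 30.3 and 111 fragments. It overlapped no listed peak in PB115 and a peak of fold 6.0 and 44 fragments in PB119. Sizes of fold depend on each line's own input and depth, so these values stand beside each other as a description.

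Input background could be recovered for each peak from its pileup and fold, and it resolved to the window of input tags that set it. The authors' caller takes the largest of 4 input levels: coverage at the summit itself, tags within windows of 1000 and 10000 bp, and the genome-wide level, here 1.443 fragments. In PB120 the summit's own coverage set the background at 2060 peaks (39.9%, Wilson interval 38.5 to 41.2), the 1000 bp window at 1632 (31.6%), the 10000 bp window at 1445 (28.0%) and the genome-wide level at 31 (0.600%). A 10000 bp count that is a multiple of 10 cannot be told from a count in the 1000 bp window and was assigned to the latter. The share set by the summit's own input was 28.7% in PB115 and 26.5% in PB119, and that set by the 10000 bp window was 44.2% and 48.6%. Input coverage directly under the summit thus set the background at a larger share of the PB120 peaks than of the others. Filtered input tags numbered 26156520 in PB120, 28380432 in PB115 and 37979638 in PB119. No replicate input bears on the difference in these shares, and the part of input depth in it was not tested.

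**Figure D1:**
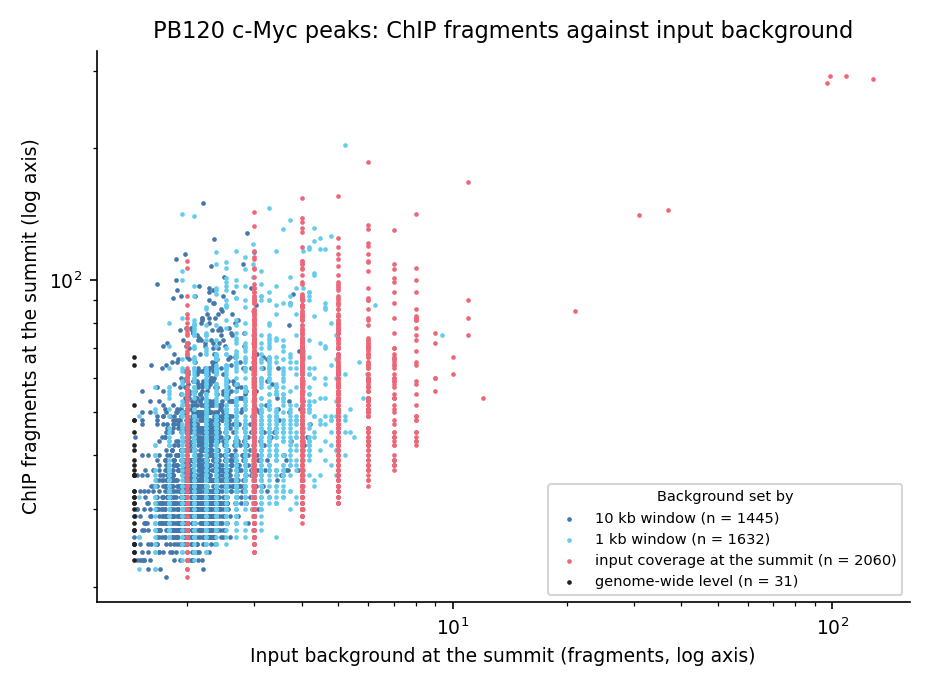
ChIP fragments at the summit (vertical, log axis) against recovered input background in fragments (horizontal, log axis) for the 5168 PB120 peaks, one point each, coloured by the input level that set the background. Peaks whose background came from the summit itself stand in columns at whole numbers, and 4 peaks at the upper right lie beside a ribosomal RNA pseudogene with 97 to 128 input fragments.

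Median background over PB120 peaks was 1.86 times the genome-wide level (quartiles 1.47 and 2.48), beside 1.59 in PB115 and 1.51 in PB119, lines with deeper inputs. It exceeded 2 times that level at 2397 peaks (46.4%), where the median fold was 7.81, and 5 times at 51 peaks. The fold of a PB120 peak therefore reads differently from place to place. Tfdp1, which encodes the dimer partner of E2F factors, had 168 fragments, among the highest counts of the list, over an input of 11, and its fold was 11.4. Utp25 reached 39.5 with 142 fragments over a background of 1.94.

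The highest backgrounds and the lowest folds of the list fell on the same 4 peaks. They lie on chromosome 17 between 39843082 and 39848811, where the table annotates the 18S ribosomal RNA pseudogene Rn18s-rs5 and the lncRNA AY036118. Their summits carried 282, 288, 292 and 293 ChIP fragments, at 97, 128, 99 and 109 input fragments, and folds of 2.34, 1.82, 2.37 and 2.17. With 1 tag kept per position and strand and a fragment length of 149 bp, coverage cannot exceed 298 fragments, so the ChIP values there stood close to their ceiling and the input well below it. The next highest backgrounds were 37 fragments inside the lncRNA gene Gm36876 (fold 3.12), 31 at 5860553 to 5860841 on chromosome 3 (fold 3.60), 21 inside Cdk8, a Mediator kinase gene (fold 3.17), and 12 inside the lncRNA gene Carmn (fold 3.44). Except at Carmn, peaks of low fold overlapped these sites in both other lists, with folds from 1.99 to 6.18. Outside the ribosomal RNA site, the most fragments were 204 at the lncRNA gene Gm31068 (fold 26.7), 186 at Uspl1, a gene of Cajal body maintenance (fold 21.7), and the 168 of Tfdp1.

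Long peaks were few, with 24 of 1000 bp or more. After the ribosomal RNA site the longest were 1520 bp at Ptbp1, a splicing repressor gene (fold 18.7), 1458 bp at Abhd11, a mitochondrial hydrolase gene (15.02), 1259 bp at Pcbp1, and 1177 bp near the ends of Hspd1 and Hspe1, the paired genes of the mitochondrial chaperonin (20.8). At the other extreme, 133 peaks were exactly 149 bp long, the fragment length. The peaks nearest to the p cutoff of 1e-10 were those near the ends of Zfc3h1 and Thap2 (fold 3.87, 37 fragments over an input of 7), near Cep170 and Sdccag8, and near Atf3, a stress-induced transcription factor gene. The last pair each had a fold of 5.11 with 24 fragments over an input of 3.

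Gene ends, and above all starts, held most of the profile. Of the 5168 summits, 3236 (62.6%) lay within 1000 bp of an annotated end of a protein-coding gene and 1167 (22.6%) deeper inside one. The latter can still lie near a listed start inside the gene, as at Dazap1 and Larp1. Another 174 (3.37%) lay near an end of a noncoding gene or pseudogene and 118 (2.28%) inside one, which left 473 (9.15%) outside annotated genes. Strand and start sites came from a RefSeq promoter table that has none on chromosome 18, which leaves 5049 summits, and none for 3884 coding genes on the other chromosomes. Of the 5049, 3106 (61.5%) lay within 1000 bp of a listed start, 1711 (33.9%) within 100 bp, and 1227 (24.3%) beyond 10000 bp. The near shares are lower limits and the far share an upper one, since 332 of the 1227 lay within 1000 bp of an end of a coding gene without a listed start. Among the 3106, 63.4% were upstream and 36.3% downstream of the start, with a median position of -35 bp and quartiles of -123 and 38 bp. Of 3011 bound genes of known strand, 2886 (95.8%) had a summit at the start, 65 of them at both ends, and 125 at the opposite end alone. Of these 125, only 56 had such a summit over 1000 bp from every listed start.

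**Figure D2:**
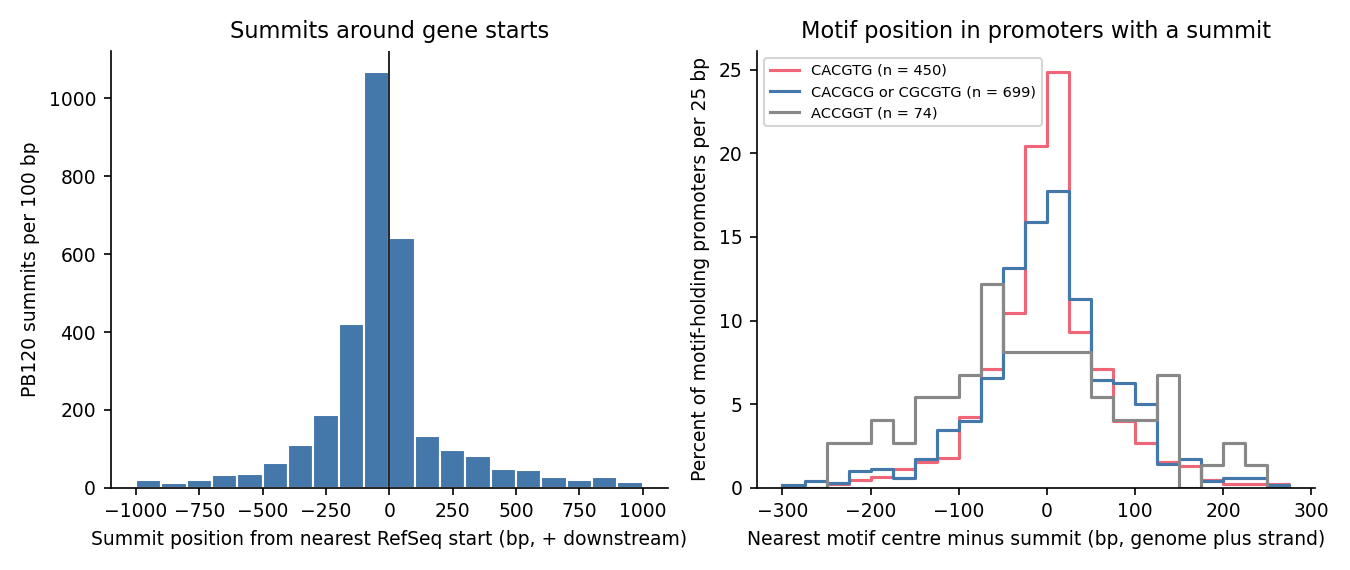
Left, PB120 summits per 100 bp around the nearest listed RefSeq start (bp, positive downstream). Right, position of the nearest motif centre relative to the summit (bp) in promoters that hold the summit, as percent of the promoters with that motif per 25 bp, for CACGTG (450 promoters), CACGCG or CGCGTG (699) and ACCGGT (74). Summits are most frequent just upstream of the start, and CACGTG is most frequent next to the summit.

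Sites more than 1000 bp from gene ends and starts could be as strong as promoters. This distance holds for every annotated gene end, noncoding genes and pseudogenes included, and for every listed start. The 5 highest such sites began with the one upstream of Phf13. A summit inside Celsr2, a cadherin receptor gene, lay 13631 bp after its start (fold 29.2, 143 fragments). One inside Fam222a lay only 1884 bp after its start (27.2, 133 fragments). One outside genes lay 76804 bp from Chd2, a chromatin remodeller gene (27.0, 128 fragments). The last, inside Mxd3, a Max partner gene, lay only 1920 bp after its start (26.4, 91 fragments). At Celsr2 and near Chd2 the other lines were as high or close (31.2 and 42.4, 25.7 and 37.7). At Fam222a they had 8.85 and 15.1. The median fold was 8.45 outside genes, 8.78 inside coding genes and 9.07 at their ends, a range narrow beside the quartiles of any of these classes. Median background was 2.08 times the genome-wide level outside genes and 1.75 times at coding gene ends.

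A protein-coding gene is called bound when a PB120 summit lies within 1000 bp of either end, and it takes the peak of highest fold. Summits deeper inside a gene do not count, even near a listed start inside it. Examples are Dazap1 and Larp1, whose leading summits lie 247 and 380 bp before a listed start of the gene. A gene called not bound can therefore still hold a peak. By this rule 3599 of 21887 coding genes were bound, 16.4%. With only the peaks whose background is within 2 times the genome-wide level, 2149 were bound. The median fold of all 3599 was 9.23, with quartiles of 7.65 and 11.6. For 1229 bound genes, the peak of highest fold also lay near an end of another coding gene. In all, 671 summits lay near 2 or more coding genes, so a bound gene is not always the only candidate for its peak. Below, such sharing is marked for some genes only. By chromosome, the share bound ran from 2.59% on X (25 of 966 genes) and 11.5% on chromosome 18 to 22.3% on chromosome 5 and 26.1% on chromosome 8 (272 of 1043). Of 256 genes on Y none was bound, with an upper Wilson limit of 1.48%.

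Genes of ribosome production and protein synthesis were bound far above that 16.4%. The gene groups here and below were chosen with earlier results of these data known, so their shares are descriptive. Of 54 ribosome assembly and rRNA processing genes 46 were bound, with a median fold of 11.7. The leaders were Rrs1, which recruits the 5S particle (fold 24.1, 88 fragments, chromosome 1 at 9545126 to 9545575), Ncl, the nucleolin gene (23.4, 131 fragments), and Ppan (22.9, 112 fragments). The 8 without a summit near an end included Dkc1, the pseudouridine synthase gene, and Noc2l. Small-subunit ribosomal proteins had 28 of 32 genes bound, led by Rps3a1 (23.9, 102 fragments). The unbound members were Rps2, Rps4x, Rps9 and Rps15. Large-subunit proteins had 33 of 46 bound at a lower median fold of 8.15, led by Rpl10a (23.3), Rpl13a (17.0) and Rpl14 (14.7).

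Other protein synthesis groups had bound shares between 43.6% and 71.1%. Translation initiation and elongation factors had 32 of 45 genes bound, with Eif4b at 22.5 and 97 fragments, Eif4a1, an RNA helicase gene whose summit also lies near Senp3, at 21.2, and Eif4a2 at 14.9. Aminoacyl-tRNA synthetases and their partners had 21 of 39 bound, led by Ears2 (23.0), the scaffold gene Aimp2 (19.1, near Pms2 as well) and Yars (15.3). Polymerase subunits and Pol I and III factors also had 21 of 39, and after Polr3e came Polr2j (20.4) and Taf1c (11.9). Ubtf, the Pol I architectural factor gene, and Polr1a, the largest Pol I subunit gene, were not bound by this rule. Mitochondrial ribosomal proteins had 34 of 78, from Mrpl43 (14.95), Mrpl44 (14.8) and Mrpl20 (14.0) down to Mrpl52 (4.54).

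Among mitochondrial genes, import and genome expression had a larger bound share than respiratory subunits. Import, chaperone and genome expression genes had 27 of 42 bound with a median fold of 12.2, led by Hspd1 and Hspe1 (20.8, 1 summit) and Tfb2m, a mitochondrial transcription factor gene (18.9). Oxidative phosphorylation subunits had 29 of 77 with a median fold of 8.19, led by Atp5g2 of ATP synthase (16.7), Ndufa7 (14.0, a summit near Rps28 too) and Ndufv1 of complex I (13.3). The lowest bound was Ndufb5 at 6.04.

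Metabolic groups differed in the same descriptive sense. Purine, pyrimidine and polyamine synthesis had 21 of 35 genes bound and 10 of them in the top fold quintile of the peak list. Impdh2, the committed enzyme of guanine nucleotide synthesis, had 21.1, Srm, spermidine synthase, 19.2, and Nme1, a nucleoside diphosphate kinase gene, 18.8 with 119 fragments. Serine, glycine, one-carbon and amino acid use had 21 of 32, led by Got2 (16.6), Mat2a, which makes S-adenosylmethionine (14.6), and Psat1 of serine synthesis (13). Glycolysis had 13 of 30, with Hk2 (13.6), Pkm (13) and Pgam1 (12.2) highest and Gapdh lowest at 6.68. Ldha, Aldoa and Slc2a1 were not bound. Of the unbound genes of this group, 3 had a summit inside the gene and 4 had 1 within 5000 bp of an end. These counts can overlap. Sterol and fatty acid synthesis had 11 of 32, led by Scap, the sterol sensor of SREBP (16.6), Fasn (14.9) and Acaca (11.4), down to Elovl6 (5.30).

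RNA processing and protein handling genes were also frequent. Splicing and hnRNP genes had 33 of 52 bound, with Pcbp1 (37.1), Prpf3 (20.1) and Snrpd1 (19.1) at the top. Nuclear transport genes had 29 of 51, led by the importin gene Ipo7 (20.7), the pore basket gene Nup153 (20.2) and Ranbp1 (17.5). Chaperones had 21 of 41, with Ptges3, an Hsp90 cochaperone gene (15.01), the chaperonin subunit gene Cct8 (14.8) and Hsp90aa1 (14.8). Proteasome subunits had 17 of 34, with Psmd3 (16.1), Psmb3 (15.4) and Psmd5 (14.2). Lysosome, V-ATPase and autophagy genes had 21 of 51, and their 3 leaders, Lamp1 (15.9, 103 fragments), Atp6v0d1 (15.2) and Map1lc3b (14.5), all lie on chromosome 8. That chromosome held 5 of the 21 bound genes of this group and 6 of its 51 members. The lowest was Wipi1 at 5.59.

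**Figure D3:**
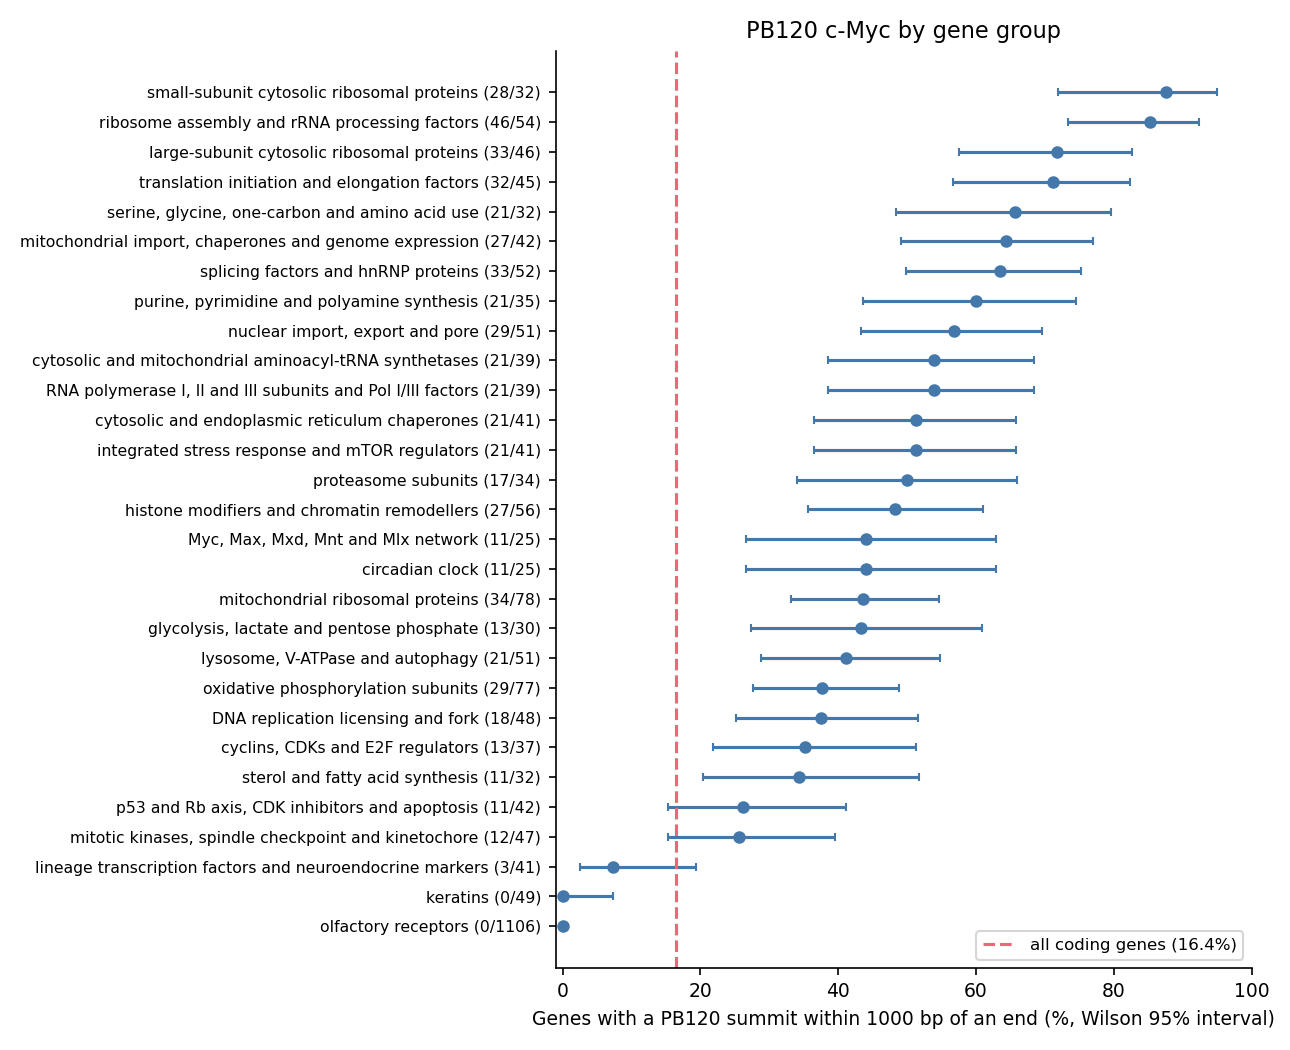
Percent of genes with a PB120 summit within 1000 bp of an end (horizontal) for 29 gene groups (vertical, bound over members in brackets), with Wilson 95% intervals over genes. The dashed line marks the 16.4% of all coding genes. Ribosome groups stand at the top and the lineage group, keratins and olfactory receptors at the bottom.

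Proliferation genes had lower shares, nearer to that of all coding genes. Cyclins, CDKs and E2F regulators had 13 of 37 bound, from Ccne2, the cyclin E2 gene (19.6), Cdk7 (15.5) and Cdk4 (12.3) to Cks1b (6.68). Replication genes had 18 of 48, with Top1 (20.0), Pole4 (15.7) and Gins4 (13.2) leading. Their lowest, Cdt1, a licensing factor gene on chromosome 8, had 90 fragments but an input background 7.62 times the genome-wide level and a fold of 6.16. Mitotic kinase, checkpoint and kinetochore genes had 12 of 47, led by Cenpp (17.2, near Nol8 too), Nuf2 (14.3) and Aurka (14.1, near Cstf1), and ended with Cenpn (6.12). The p53 and Rb axis with CDK inhibitors and apoptosis genes had 11 of 42, led by Bax (17.6), Trp53 (17.3, near Wrap53 as well) and Gadd45b (11.97), with Bad lowest (4.19). The Wilson intervals of these last groups, 15.3% to 39.5% and 15.3% to 41.1%, include 16.4%.

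Regulatory groups spanned a wide range. Circadian clock genes had 11 of 25 bound with a median fold of 13.1, the highest median of the 27 functional groups, and 9 of the 11 fell in the top fold quintile of the peak list. Nr1d1, a nuclear receptor that represses Arntl, had 20.3 and 132 fragments, Dbp 16.2, Per2 16.0 and Ciart, the lowest, 7.49. Clock and Arntl themselves were not bound. Histone modifier and remodeller genes had 27 of 56, from Kmt2c (28.6, at a summit 963 bp from its end and 21 bp from that of the lncRNA gene 4831440E17Rik), Brd2 (17.2) and Smarca4 (16.9) down to Smarcb1 (5.87). Stress response and mTOR regulators had 21 of 41, led by Akt1s1 (19.7, near Tbc1d17 too), Tbc1d7 (18.6) and Lamtor2 (17.5, near Ubqln4 too). Lineage transcription factors and neuroendocrine markers had 3 of 41, the only functional group below 16.4%: Notch2 (9.61), Nfib (9.49) and Hes6 (8.46). Its Wilson interval of 2.52% to 19.4% includes 16.4%. No gene was bound among 49 keratins or 1106 olfactory receptors, where the Wilson intervals reach up to 7.27% and 0.346%. These shares do not take promoter class or gene activity into account, and their part in the differences between groups was not tested.

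Of 25 annotated genes of the Myc and Max network, 11 were bound. Mnt, a Max partner that represses E-box genes, had 15.7 at an end and 5 summits in and around the gene, the highest of them at 25.2. Mlxip, whose product pairs with Mlx, had 15.4, and Mga, whose product pairs with Max, had 15.3. The cofactor genes followed with Kat2a at 13.5, Ep400 at 12.4, Ruvbl1 at 9.76 and Wdr5 at 8.19. Max itself had 60 fragments over an input 3.46 times the genome-wide level and a fold of 8.26. Mxd3 had 7.79 near its start beside the 26.4 inside the gene, Fbxw7, which marks Myc for degradation, 7.49, and Mxd4 4.43. Among those not bound by the rule above were Myc, Mycn, Mycl, Mxd1, Mxi1, Mlx, Mlxipl, Zbtb17, Trrap, Ruvbl2, Kat5, Huwe1 and Bptf. Of the unbound network genes, 4 had a summit inside the gene and 4 had 1 within 5000 bp of an end. These counts can overlap. At this depth the weakest listed summit had 21 fragments, so a site without a peak was not detectable at the authors' cutoff.

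Noncoding genes were bound less often, apart from tRNA genes. Of 408 tRNA genes 61 (14.95%, Wilson interval 11.8 to 18.7) lay within 1000 bp of a summit, from 44 summits, 25 of them more than 1000 bp from any coding gene end. After n-TLaag4, the highest were n-TQttg6 (16.1) and n-TCgca52 (15.7), neither with a coding gene end in reach. Long noncoding RNA genes had 562 of 12727 (4.42%), led by 1600020E01Rik at the Pcbp1 summit and the pair Gm12762 and Gm12758. The miRNA genes had 43 of 1228 (3.50%), where Mir707 (19.7), Mir5627 (17.3) and Mir688 (16.7) lie near summits of Akt1s1, Dnajb9 and Atp5g2. The snoRNA genes had 38 of 1340 (2.84%), led by LOC115487884 (23.7) and by Snord110 and LOC115489609, which share a summit of 16.4. Of the 562 lncRNA genes, 194 had a summit in reach that lay more than 1000 bp from any coding gene end. The same held for 13 of the 43 miRNA, 16 of the 38 snoRNA and 39 of the 61 tRNA genes.

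Most genes with a peak had 1. Counting summits from 1000 bp before to 1000 bp after the gene, 4403 coding genes (20.1%) had at least 1 and 623 (2.85%) had 2 or more, of which 514 had 2, 84 had 3 and 12 had 4. The 623 fell to 342 with summits within 1000 bp of each other counted once, to 318 with the gene body alone and to 298 at a p of 1e-20. The 13 genes with 5 or more had a median length of 47143 bp. Length did not follow the number of summits step by step, with medians of 22343.5, 21341, 29533.5 and 16537.5 bp for genes with 1, 2, 3 and 4 summits. Transcription factor and corepressor genes were among them. Nfix, a nuclear factor I gene of 96527 bp on chromosome 8, had 19 summits with folds of 5.37 to 12.9. Gse1, a gene of 352883 bp on the same chromosome that encodes a corepressor complex protein, had 15 with folds of 5.38 to 13. Far behind came the nuclear factor gene Nfic and the retinoic acid receptor gene Rara with 6 each. Bahcc1, Bop1, Ece1, Gm20783, H2-DMa, Kdm6b, Mnt and Tex14 had 5. H2-DMa overlaps Brd2 as annotated, and the highest summit counted for it (17.2) lies 138 bp from an end of Brd2. The highest summit in Tex14 (15.7) lies 449 bp from the noncoding gene Rnu3b3. Bop1, a ribosome assembly gene, reached a fold of 25.8, and Kdm6b, a histone demethylase gene, 19.5.

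For Nfix and Gse1 the number of summits was high in every line and highest in PB120, whose list is the shortest. PB115 had 8 in Nfix and PB119 13, beside 10 and 13 in Gse1. Rara had most summits in PB119, with 14, beside 6 in PB120 and 3 in PB115. The strongest Nfix summit of PB120 lies 655 bp after the start, with 110 fragments, and the others are spread up to 91836 bp after it with 33 to 61 fragments. In Gse1 the PB120 summits carried 32 to 89 fragments and begin 19666 bp after the annotated start. Median input background over these summits was 2.80 times the genome-wide level in Nfix and 2.77 times in Gse1, beside 2.19 and 1.52 in PB115 and 2.15 and 1.47 in PB119. Its part in the number of summits was not tested.

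**Figure D4:**
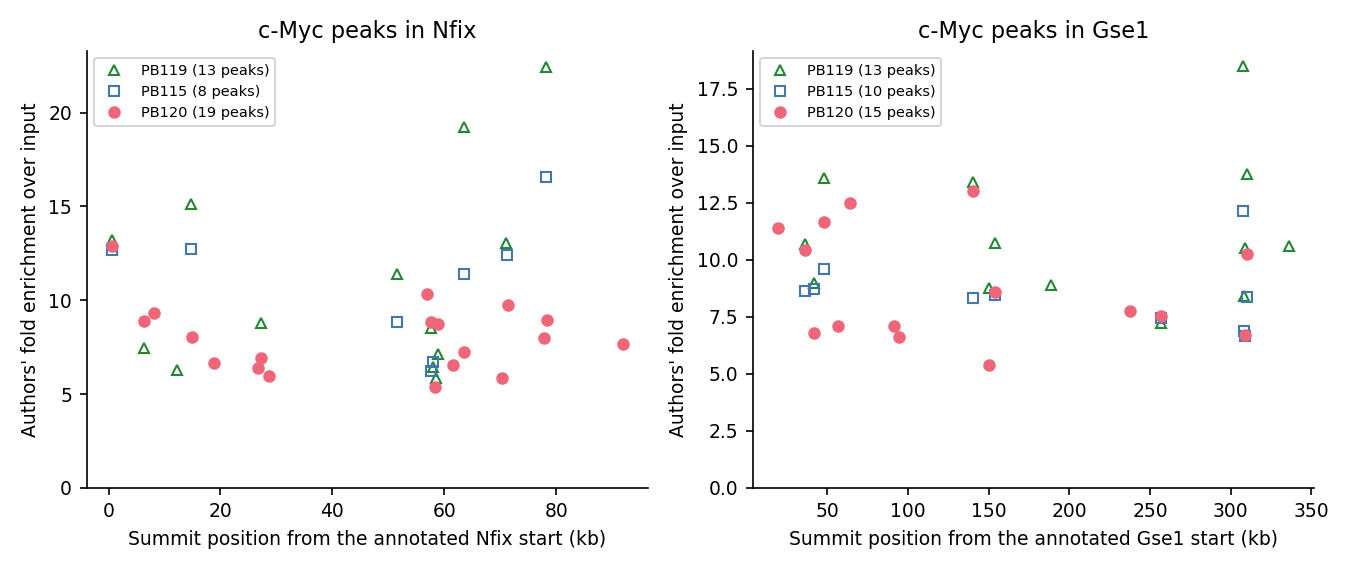
Authors' fold enrichment (vertical) of each c-Myc peak in Nfix (left) and Gse1 (right) against the distance of its summit from the annotated gene start (kb), for PB120 (filled circles), PB115 (open squares) and PB119 (open triangles). PB120 has 19 and 15 peaks, spread along both genes, and no PB120 fold exceeds 13.005.

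Both genes lie on chromosome 8, where input background and peaks were high together in PB120. The chromosome held 424 of the 5168 peaks, 8.20% (Wilson interval 7.49 to 8.98), beside 5.12% in PB115 and 5.20% in PB119. Median background there was 2.62 times the genome-wide level (quartiles 2.08 and 3.20), against 1.79 over peaks of the other chromosomes, whose own medians ran from 1.46 on X to 2.08 on chromosome 3. The ratio of chromosome 8 to the others was 1.47. In PB115 the median was 1.87 on chromosome 8 and 1.57 elsewhere, and in PB119 1.76 and 1.51. Where the 10000 bp window set the background, the median input was 194 tags on chromosome 8 and 124 to 159 tags on each other chromosome, with 96.9 tags at the genome-wide level. Peaks of this class exceed the genome-wide level by definition. Among them, PB120 input per 10000 bp window was higher on chromosome 8 than on each other chromosome.

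ChIP coverage was higher on chromosome 8 too, with a median of 47 fragments beside 40 on the others, while median fold was lower, 8.26 beside 8.99. Along the chromosome, median background was taken in steps of 10 Mb. It was at least 2.77 times the genome-wide level in the first 20 Mb, from 80 to 100 Mb and from 120 to 130 Mb. The lowest median, 1.65 times, was from 60 to 70 Mb (11 peaks). The densest megabase of the whole list was 84000001 to 85000000 on chromosome 8, which contains Nfix, with 47 peaks, 31 in PB115 and 47 in PB119. By contrast, the megabase starting at 80000001 on chromosome 10 had 46 in PB120 and 66 and 76 in the others. The megabase starting at 126000001 on chromosome 8 had 28, beside 17 and 25, and 6 coding genes begin there in the gene table. One of its peaks, 72872 bp from Irf2bp2 at 126666241 to 126667321, had 156 fragments and a fold of 21.2, beside 11.3 and 11.9 in PB115 and PB119. Chromosomal copy number, chromatin shearing and c-Myc binding cannot be told apart from peak lists with 1 input library per line.

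**Figure D5:**
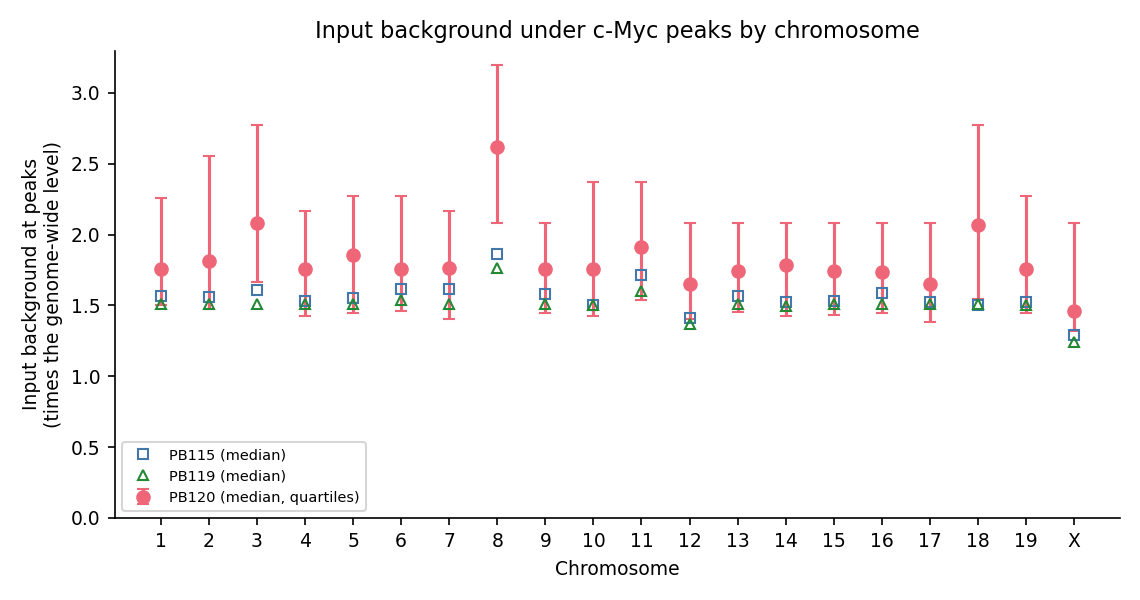
Median recovered input background under c-Myc peaks by chromosome, in multiples of the genome-wide level, for PB120 (circles, with bars from the lower to the upper quartile), PB115 (squares) and PB119 (triangles). Chromosome 8 has the highest median in all 3 lines, and in PB120 it is 2.62.

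The E-box was more frequent where PB120 had a summit. CACGTG, a palindrome and so read alike on both strands, occurs in 7.15% of all 32851 RefSeq promoters of 300 bp. It occurred in 17.0% of the 4037 promoters with a PB120 summit within 1000 bp of the start (Wilson interval 15.9 to 18.2), in 20.9% of the 2550 whose window holds the summit, and in 5.77% of those with none in reach. Promoters of 1 gene or of neighbours can overlap and share a summit. From the bottom to the top fold quintile, the share among promoters holding the summit was 15.9%, 14.7%, 17.7%, 23.4% and 29.8%. Promoters with a summit are richer in CpG, with a median of 26 per window beside 6. Within the middle range of that CpG count, CACGTG was in 19.8% of promoters with a summit and 9.02% of those without.

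The weaker site CACGCG or its reverse complement CGCGTG occurs in 9.27% of all promoters and was in 33.3% of those holding a summit. In the same CpG range the shares were 32.5% with and 20.0% without a summit. ACCGGT, a palindrome of the same letters, is in 2.33% of all promoters and was in 3.45% of those holding a summit, and in 3.86% and 4.28% in the CpG range. Position followed the same order. Counting each summit once, CACGTG centres lay a median of 29.5 bp from the summit, with 293 of 450 (65.1%) within 50 bp. CACGCG or CGCGTG centres lay at 40.5 bp (58.1% within 50 bp), and ACCGGT centres at 78 bp (32.4%). As with Rps3a1 and Ing5 above, most promoters with a summit had no CACGTG in the window. Of the 3599 bound coding genes, 3011 (83.7%) had a promoter sequence in the table.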

How the data were processed

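c-Myc ChIP-seq peaks of PB120 were analysed from 1 list, called by the authors against PB120 input. Bowtie, SAMtools, MACS2 and build mm10 are named per the submitters' processing notes. The sources used here give no version for Bowtie or SAMtools. Peak calling ran in MACS 2.1.0.20140616, per the file headers, at a p cutoff of 1e-10, 50 base tags, at most 1 tag per position, and 32299364 ChIP and 26156520 input tags after filtering. The deposited pileup is a signal scaled to input depth. Divided by 0.8098 it gave whole fragments within 0.02 at 100% of peaks. The deposited fold is a ratio with 1 added above and below, from which background was recovered. The deposited −log10 p-value served as a filter. The deposited −log10 q-value was not used.

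Genes and promoters came from RefSeq GRCm38.p6, the assembly of mm10 (49943 genes, 21887 coding). Strand was known for 17492 coding genes. Coordinates are 1-based. Computation used Python 3.11.15, numpy 2.4.6, pandas 2.3.3, scipy 1.17.1 and matplotlib 3.10.9, and the recovery of fragments and windows was tested on simulated data. No test between samples was possible, so shares carry Wilson and counts exact Poisson intervals. The members and the 29 gene lists were chosen with earlier results of these data known. Named genes are the leading peaks by fold, length, fragments and background, the 3 highest of each list, the lowest of lists bound at under 50%, the genes with most summits, all Myc network genes and the leading noncoding genes. A few genes that this rule names are not reported here. Unbound genes named in the text, the peaks given after the ribosomal RNA site, the Irf2bp2 site and the sequences were chosen after the values were seen. Alternatives covered the window, p of 1e-20, summit depth, background, gene table and motif, and, added after seeing the data, ACCGGT, peaks with 10000 bp background and leaving out chromosome 8.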

Additional observations from a re-analysis of the deposited data

How the results depend on the processing

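No paired analysis was possible because PB120 has 1 ChIP and 1 input library, and no library could be left out. With p of 1e-20 or lower, median fold was 10.3, fragments 48 and length 281 bp, genes with several peaks numbered 298 and CACGTG stood in 19.6% of promoters. With at least 30 fragments, median fold was 9.29, fragments 42, length 258 bp and background 2.04 times the genome-wide level. With background within 2 times that level, the values were 9.71, 37, 237 bp and 1.497 times, 68.0% of summits lay near coding gene ends and bound genes fell to 2149. Without chromosome 8, median background was 1.79 times the genome-wide level. Summits near ends were 56.1% at 500 bp, 75.7% at 5000 bp and 67.7% with all annotated genes. Genes with several peaks numbered 318 in gene bodies alone and 342 with summits within 1000 bp counted once. The chromosome 8 ratio was 1.36 where the 10000 bp window set the background. The promoter share was 20.9% where the window holds the summit, 28.5% for CACGCG or CGCGTG and 3.42% for ACCGGT. Of 27 functional lists, 26 exceeded the share of all coding genes in the main setting, at 500 bp, at 5000 bp and at p of 1e-20. Each was set against the share under that setting. The lists were chosen with earlier results of these data known, so this count is descriptive. Of 29 lists, bound counts moved by over 1.5 times in 0 at 500 bp, 1 at 5000 bp and 7 at p of 1e-20, where the glycolysis list had 6 bound and the large-subunit list 20. Apart from the constructed subsets, the cause of these shifts was not tested.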
